A study of Mus musculus with 12 samples.

Results

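The genes of the endoplasmic reticulum (ER) that fold, modify, move and dispose of secreted and membrane proteins were followed in mouse CD4+ T cells. The 32 genes were taken by name, as ER chaperones, folding enzymes, degradation and translocation factors and stress sensors. All 32 were found among the 45777 genes of the deposited table and all 32 passed the filter on low values, which left 15197 genes for testing. The cells came from the spleens of C57BL/6 wild type mice aged 7 weeks and were cultured for 3 days with anti-CD3 at 0.5 µg/ml, an antibody that stimulates the T cell receptor and that every group received. Control cultures had no drug, and the others had Metformin (a diabetes drug), FK506 (tacrolimus, which blocks calcineurin) or Metformin+FK506, with 3 samples in each of the 4 groups. The drug doses of these cultures and whether the samples came from separate cultures or animals are not given in the sources used here, so the p-values measure the spread between these samples, which may be technical. The cells were taken from spleen with magnetic beads that bind CD4, a marker that other splenic cells can also carry.

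Proteins bound for the membrane or for secretion enter the ER through the SEC61 channel, where chaperones of the HSP70 and HSP90 families, disulfide isomerases and the lectins calreticulin and calnexin help them fold. Proteins that fail to fold are drawn back out and degraded, a route called ER-associated degradation. When unfolded proteins build up, the sensors IRE1 (gene Ern1), PERK (Eif2ak3) and ATF6 start the unfolded protein response, in which the transcription factors XBP1 and ATF6 raise chaperone and degradation genes, while PERK slows translation and favours ATF4. Activated lymphocytes, and antibody-secreting plasma cells above all, are known for a large ER.

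Part of the group shares DNA elements that were searched because they are known from the ER stress response. The ER stress response element (ERSE) is bound by NF-Y, ATF6 and XBP1 and was searched as CCAAT, any 9 bases and CCACG on either strand. Its shorter relative, ERSE-II, was searched as ATTGG, any single base and CCACG. RefSeq promoters of GRCm38.p6, from 250 bases before the annotated start to 50 bases after it, were at hand for 25 of the 32 genes, as 26 promoters. ERSE was present in 9 of these 26 promoters (34.6%) and in 39 of 32851 promoters of all genes (0.119%). ERSE-II was present in 2 of the 26 and in 12 of the 32851 (0.0365%), and no promoter held both elements, although both end in CCACG. The 7 elements below were chosen because they stand before genes whose values carry the results that follow, and before Canx, which carries an ERSE and was lower with metformin on counts (-0.14) but not after quantile normalization of the FPKM values (0.017). Each is read on the strand of its gene with 15 bases on either side, and the capitals mark the element, forward or as its reverse complement.

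Hspa5, ERSE, chr2:34772010-34772058, plus strand: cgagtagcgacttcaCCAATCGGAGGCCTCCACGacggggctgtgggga
Calr, ERSE, chr8:84847060-84847108, minus strand: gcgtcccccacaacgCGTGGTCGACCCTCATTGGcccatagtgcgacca
Derl3, ERSE, chr10:75893227-75893275, plus strand: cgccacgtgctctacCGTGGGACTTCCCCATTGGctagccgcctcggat
Pdia6, ERSE, chr12:17266476-17266524, plus strand: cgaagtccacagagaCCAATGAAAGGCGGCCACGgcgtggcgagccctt
Syvn1, ERSE, chr19:6046517-6046565, plus strand: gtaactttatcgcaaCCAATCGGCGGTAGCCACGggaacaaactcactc
Canx, ERSE, chr11:50325785-50325833, minus strand: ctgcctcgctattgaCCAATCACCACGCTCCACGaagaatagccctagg
Herpud1, ERSE-II, chr8:94386362-94386402, plus strand: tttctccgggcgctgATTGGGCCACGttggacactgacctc

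The other ERSE promoters were those of Hsp90b1 with 2 matches, Dnajc3 and Creld2, and the other ERSE-II promoter was that of Dnajb11, where the element lay from 7 to 17 bases after the start. In Hspa5 the element began 65 bases before the start and in Syvn1 44 bases before it, and in Calr it began 162 bases before the start. The core motif of XBP1 and ATF6, TGACG followed directly by TGG, was in none of the 26 promoters and in 0.676% of all promoters. The element of CHOP and ATF4, TGATG followed directly by CAA, was in the Herpud1 promoter alone among the 26 and in 0.895% of all promoters. A match is a description of letters, and no match says nothing about the factor.

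**Figure D1:**
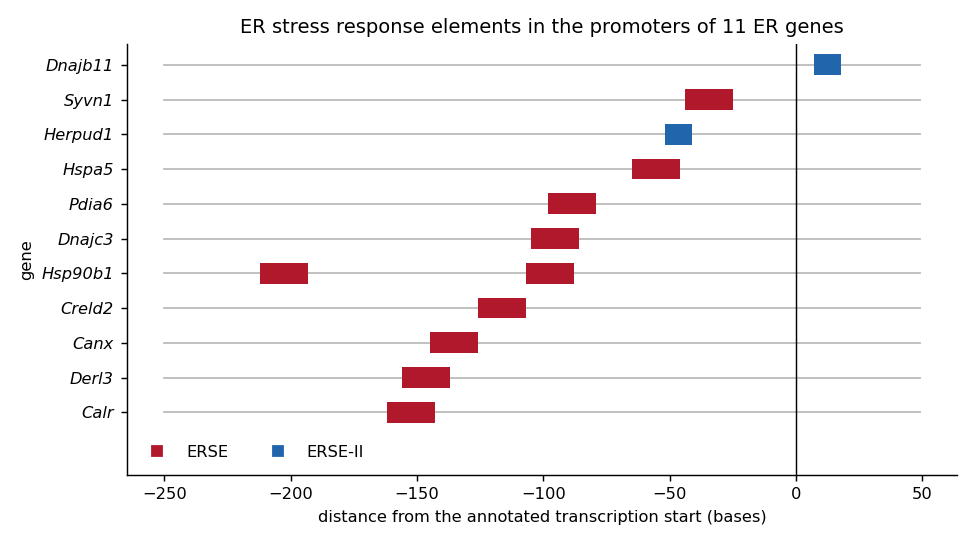
Position of ERSE (red) and ERSE-II (blue) in the promoters of 11 ER genes, in bases from the annotated transcription start, with each grey line spanning the promoter searched. The elements of 10 genes lie before the start, from 212 bases (Hsp90b1) to 26 bases before it, and that of Dnajb11 lies just after it.

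Between 43402632 and 64290105 reads were counted per sample. T cell markers were high in every sample, with the summed FPKM of 10 markers (read counts scaled to library size and transcript length) at 2892 to 2960 in Control, 3186 to 3283 with metformin, 3160 to 3283 with FK506 and 3364 to 3463 with the combination. Single T cell markers moved in both directions, with 5 of the 10 higher and 5 lower with FK506 than in Control (edgeR, adjusted p under 0.05). Mean Cd2 was 423 FPKM in Control and 212 FPKM with FK506, and mean Trac was 315 and 577 FPKM. Of all genes tested 41.3% were higher and 39.6% lower with FK506. Markers of other cells differed between the groups. The summed FPKM of 10 B cell markers was 62.9 to 66.9 in Control, 87.2 to 102 with metformin, 886 to 926 with FK506 and 427 to 458 with the combination. For 10 macrophage and monocyte markers it was 4.30 to 4.51, 8.41 to 9.72, 1364 to 1418 and 931 to 1049. The mean of Lyz2 was 981 FPKM with FK506 and 539 FPKM with the combination. Between these groups 3 of the 10 markers were higher with the combination, 1 was lower and 6 did not pass (edgeR, adjusted p under 0.05). Of all genes tested 15.6% were higher and 15% lower. Of these 10, 9 had a mean FPKM under 0.5 in Control and with metformin and 0 did in either FK506 group, and C1qa was at 0 in every Control and Metformin sample. The 10 plasma cell markers summed to 315 to 321, 144 to 156, 197 to 205 and 150 to 159, most of it in Control from Irf4, which activated T cells also express. Jchain, the joining chain of antibodies, had a mean of 0.354, 0.116, 29.0 and 13.0, and Sdc1 had 3.81, 1.10, 4.31 and 7.44. Of the 9 plasma cell markers tested, 4 were higher and 4 lower with FK506 than in Control. With the combination 3 were higher and 4 lower than with FK506. The 6 dendritic cell markers summed to 2.60 to 2.80, 4.46 to 5.23, 60.7 to 67.4 and 39.5 to 42.4, and the 2 CD8 T cell markers to 9.01 to 9.52, 12.9 to 13.2, 6.84 to 7.35 and 6.93 to 8.64. Fewer cells of a type and less RNA per cell cannot be told apart in bulk samples, and the part of these cells in the ER gene results was not tested.

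Per transcript length, the lectin chaperone calreticulin (Calr) stood highest of the 32 genes with a mean of 330 FPKM over the 12 samples. The HSP70 chaperone BiP (Hspa5) followed at 240 FPKM, the HSP90 chaperone GRP94 (Hsp90b1) at 223 and the disulfide isomerase ERp57 (Pdia3) at 183. The lowest were Derl3, a degradation factor of secretory cells, at 1.39 FPKM and the sensor gene Ern1 at 6.23 FPKM. Calr had the highest group mean in each of the 4 groups, and Derl3 had the lowest. Gene-level values do not separate spliced from unspliced Xbp1, and the processing of reads shared with related genes, or of strand, is not given in the sources used here.

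**Figure D2:**
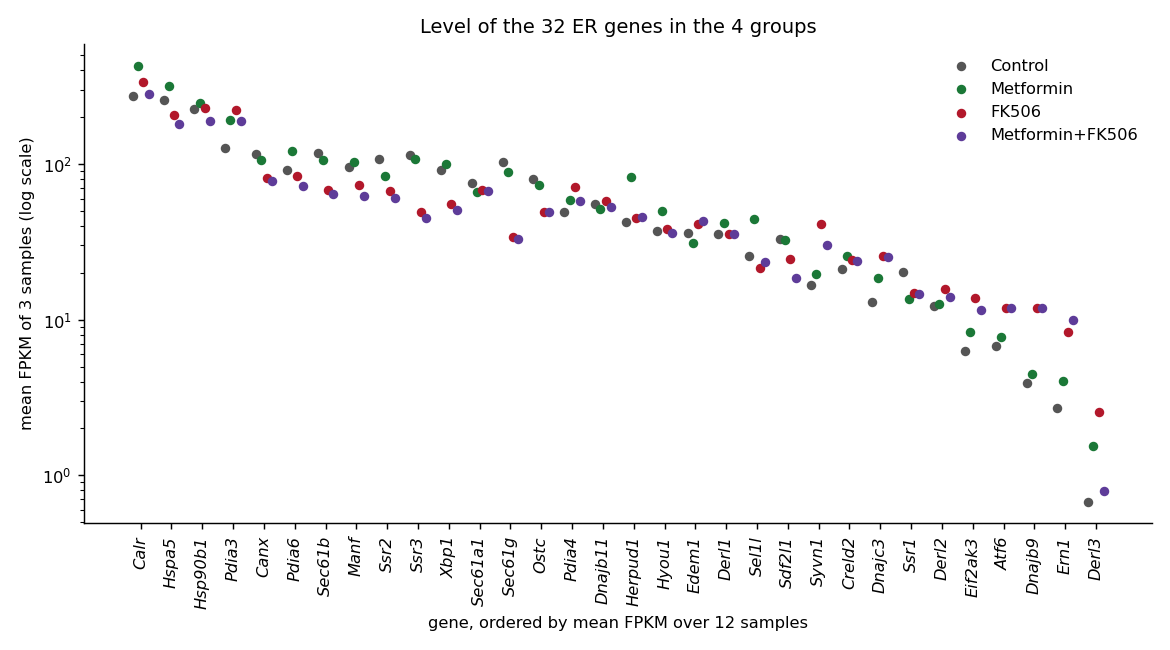
Mean FPKM of 3 samples (log scale) for each of the 32 ER genes in the 4 groups, ordered by the mean over 12 samples. Calr stands highest at 330 FPKM over all samples and Derl3 lowest at 1.39, and the 2 FK506 groups lie below Control for Sec61g and above it for Ern1 and Dnajb9.

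Among the 32 genes, metformin alone raised most folding and degradation genes and, on counts, lowered the translocation genes. Outside the 32, 2 of 20 other folding enzymes of the ER rose and 9 fell. Of 14 other degradation genes 5 rose and 5 fell. Of the 32 genes, 17 rose, 10 fell and 5 did not pass the threshold, set at an adjusted p of 0.05 (edgeR, quasi-likelihood F test, Benjamini-Hochberg method over the 15197 genes). Of all genes tested 56% passed, 28.6% upward and 27.4% downward. After quantile normalization of the FPKM values (limma), 18 of the 32 rose and only Edem1, Ssr1 and Ssr2, 3 genes, fell, beside 27.8% and 22.8% of all genes. The median log2 fold change was 0.16 over the 32 genes and 0.011 over all genes. In 27 of the 32 genes the 3 samples of metformin and the 3 of Control did not overlap, against 66.4% of all genes.

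The degradation genes held the largest rises. Herpud1 (NCBI gene 64209, chr8:94386429-94395371), a membrane protein that helps assemble the degradation machinery, was at 105, 88.1 and 97.8 CPM (counts scaled to the library size by the TMM method) in Control and at 185, 183 and 190 CPM with metformin. All metformin samples lay far above all Control samples, a log2 fold change of 0.94 (SE 0.054, adjusted p = 3.45e-10). Sel1l (20338, chr12:91806043-91849157), the adaptor that holds the ubiquitin ligase at the membrane, was at 191, 186 and 188 CPM in Control and at 319, 308 and 329 CPM with metformin. That rise came to 0.76 on the log2 scale (SE 0.036, adjusted p = 3.29e-11), again without overlap.

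Derl3 (70377, chr10:75893398-75895941), a derlin of the retrotranslocation channel, was at 0.975, 0.895 and 1.35 CPM in Control and at 2.44, 2.53 and 2.23 CPM with metformin. The groups did not overlap and the fold was 2.23, a log2 fold change of 1.16 (SE 0.20, adjusted p = 1.42e-04), on 44 to 127 reads per sample. The ligase gene Syvn1 rose by 0.19 and Derl1 by 0.20, while Edem1, which selects glycoproteins for degradation, fell by 0.19 and Derl2 was at 0.00 (adjusted p = 0.97).

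All folding enzymes and lectins of the group except calnexin (Canx) rose, 5 of 6. Calr (12317, chr8:84842088-84846931) was at 657, 600 and 626 CPM in Control and at 932, 947 and 985 CPM with metformin. It rose without overlap, by 0.60 on the log2 scale (SE 0.039, adjusted p = 1.79e-09). Pdia3 rose by 0.56, Pdia6 by 0.38, Creld2 by 0.25 and Pdia4 by 0.22, while Canx fell by 0.14, a difference that turned to 0.017 after quantile normalization of the FPKM values.

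Of the 8 chaperones and co-chaperones, 4 rose and 1 fell. Hspa5 (14828, chr2:34772090-34776529) is described with Xbp1 because of their place in the response, a choice made after the values were seen. Hspa5 was at 836, 728 and 763 CPM in Control and at 913, 954 and 916 CPM with metformin. The groups did not overlap and the log2 fold change was 0.26 (SE 0.044, adjusted p = 1.06e-04). The PERK inhibitor gene Dnajc3 rose by 0.50, Hyou1 by 0.38 and Hsp90b1 by 0.09, and the co-chaperone Dnajb11 fell by 0.14, a call lost after quantile normalization. Dnajb9 (0.16), Manf (0.08) and Sdf2l1 (-0.04) did not pass the threshold.

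All 7 translocation and glycan transfer genes fell with metformin on counts, although Ssr3 turned to 0.028 after quantile normalization of the FPKM values. Ssr1 and Ssr2, subunits of the translocon-associated protein complex, fell by 0.61 and 0.39 on the log2 scale. The other 5, Sec61g, Sec61a1, Sec61b, Ostc and Ssr3, fell by 0.13 to 0.25. Under that normalization Ssr1 and Ssr2 alone of the 7 passed the threshold. Among the sensors Ern1 rose by 0.54, Eif2ak3 by 0.35 and Atf6 by 0.17, the last a call lost with no filter on low values and after quantile normalization. The small rise of Hsp90b1 also lost its call with no filter.

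Xbp1 (22433, chr11:5520641-5525993) was at 250, 230 and 243 CPM in Control and at 251, 263 and 260 CPM with metformin. Its difference of 0.10 did not pass the threshold (edgeR, adjusted p = 0.0675), although the samples did not overlap. Xbp1 passed as higher in the 3 limma fits on FPKM and with an offset for a length trend. It also passed with a filter at a mean FPKM of 1, with only the groups compared in the fit and without Control replicate 1. The calls of Hsp90b1, Syvn1, Sec61b, Ssr3 and Atf6 were small. Hsp90b1 lost its call without any Control replicate or without Metformin replicate 2 or 3, at an adjusted p of up to 0.108. Syvn1 lost it without Control replicate 2 or 3 or Metformin replicate 1 or 3 (up to 0.0764), and Sec61b without Control replicate 2 or Metformin replicate 1 or 3 (up to 0.126). Ssr3 lost it without Control replicate 2 or 3 or Metformin replicate 1 (up to 0.145), and Atf6 without Control replicate 1 or Metformin replicate 1 or 3 (up to 0.172).

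**Figure D3:**
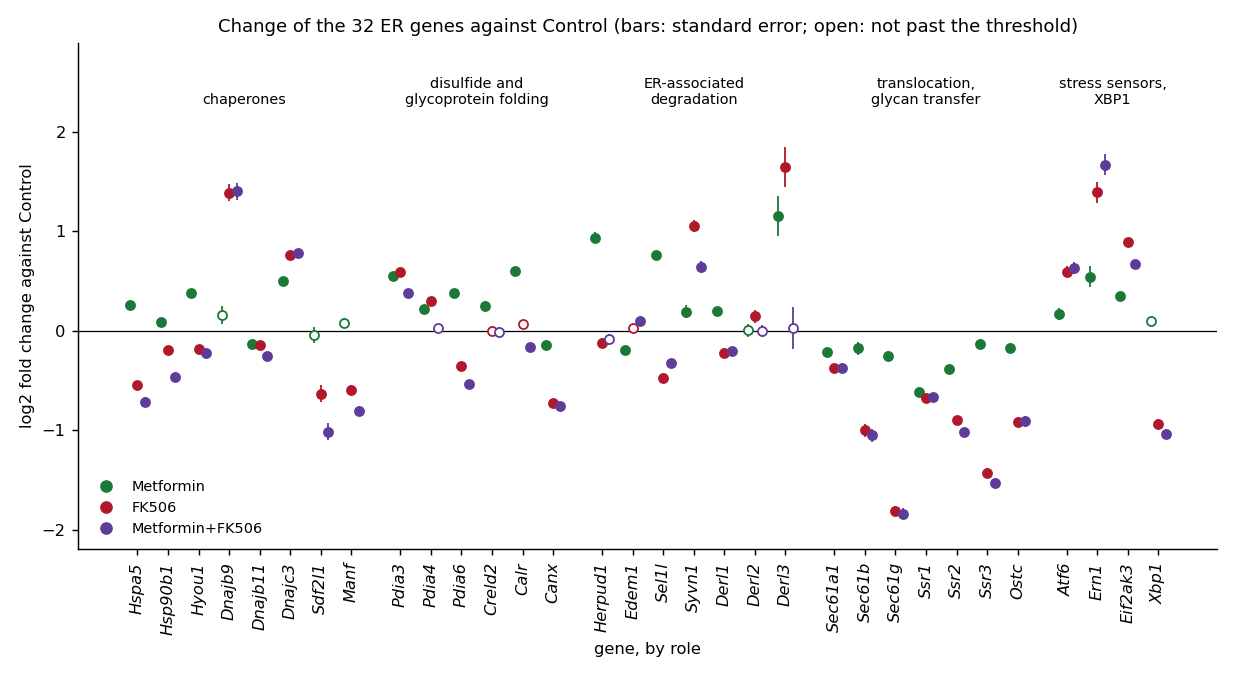
Log2 fold change against Control of the 32 ER genes by role, with the standard error, for metformin (green), FK506 (red) and the combination (purple), each of 3 samples, where open points did not pass the threshold. All 7 translocation genes lie below 0 in the 3 comparisons (Ssr3 with metformin turns to 0.028 after quantile normalization), down to -1.84 for Sec61g, while Ern1 lies above 0 in all 3, up to 1.67.

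FK506 alone lowered the translocation genes and BiP and raised the sensors. Of the 32 genes 10 rose, 19 fell and 3 did not pass, beside 41.3% and 39.6% of all genes, of which 80.9% passed in either direction. On the log2(FPKM + 1) scale (limma) the split was 13 higher and 14 lower, beside 49.9% and 31.5% of all genes, and after quantile normalization 13 and 13, beside 37.9% and 41.6%. The median log2 fold change was -0.19 over the 32 and 0.024 over all genes. Groups did not overlap in 27 of the 32 genes and in 84.5% of all genes. This comparison and the one of metformin share the Control samples.

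The falls were deepest in translocation, where all 7 genes fell with a median of -0.92. Sec61g (20335, chr11:16501638-16508484), the gamma subunit of the channel, was at 91.2, 92.7 and 92.2 CPM in Control and at 27.2, 26.3 and 25.2 CPM with FK506. The groups were far apart, 3.51-fold lower with FK506, a log2 fold change of -1.81 (SE 0.052, adjusted p = 9.24e-15). Ssr3 (67437, chr3:65379657-65392553), a subunit of the translocon-associated protein complex, was at 382, 386 and 396 CPM in Control and at 153, 143 and 136 CPM with FK506. It fell by 1.43 on the log2 scale (SE 0.049, adjusted p = 7.2e-14).

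Sec61b fell by 1.00, Ostc, an oligosaccharyltransferase subunit, by 0.92, Ssr2 by 0.90, Ssr1 by 0.68 and Sec61a1, the pore subunit, by 0.38. Short genes stood lower with FK506 in general. Genes with a transcript of up to 1000 bases had a median log2 fold change of -0.14 and those over 4000 bases had 0.20, while the 4 ER genes of up to 1000 bases had a median of -0.95. The part of length in these results was not tested beyond an offset for a length trend, under which 142 of 151 calls over all comparisons were kept.

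Derl3 went the other way, at 3.49, 3.62 and 2.99 CPM with FK506 against 0.895 to 1.35 CPM in Control. All 3 FK506 samples were above every Control sample and the log2 fold change was 1.65 (SE 0.20, adjusted p = 1.13e-06). Syvn1 rose by 1.06 to 139, 139 and 141 CPM, while Sel1l fell by 0.47 to 132, 140 and 136 CPM. Herpud1 was near its threshold, at a difference of -0.12 (adjusted p = 0.0464), which turned to 0.094 on the log2(FPKM + 1) scale and lost its call without Control replicate 1 (adjusted p = 0.291), Control replicate 3 (0.1), FK506 replicate 1 (0.142) or FK506 replicate 3 (0.126). Derl1 fell by 0.22 on counts, a call lost in the 3 limma fits on FPKM, and Derl2 was at 0.14 (adjusted p = 0.0457), a call lost without Control replicate 1 or 2 or FK506 replicate 1 or 3 (adjusted p of up to 0.224).

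Among the chaperones 6 of 8 fell and 2 rose, beside 39.6% and 41.3% of all genes. In each of the 3 limma fits on FPKM 3 of the 8 fell, beside 31.3% to 41.6% of all genes. Hspa5 fell by 0.55 to 528, 521 and 541 CPM, below every Control sample. Sdf2l1 fell by 0.63 and Manf by 0.60. Dnajb9 (27362, chr12:44205897-44210068), the co-chaperone ERdj4, rose from 8.29, 8.64 and 8.85 CPM in Control to 22.0, 22.5 and 23.1 CPM, by 1.39 on the log2 scale, and Dnajc3 rose by 0.76. The small differences of Hsp90b1 (-0.20), Hyou1 (-0.18) and Dnajb11 (-0.14) passed the threshold on counts, and turned to 0.019, 0.039 and 0.073 on the log2(FPKM + 1) scale, where the median of all genes lies 0.19 higher with FK506. After quantile normalization Hsp90b1 came to 0.130 and passed the threshold as higher (limma, adjusted p = 0.00212).

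Of the folding enzymes and lectins, Pdia3 rose by 0.59 and Pdia4 by 0.30, Canx fell by 0.73 and Pdia6 by 0.36 (a call lost after quantile normalization), and Calr (0.07) and Creld2 (0.00) did not pass. The 3 sensors rose, Ern1 by 1.39, Eif2ak3 by 0.89 and Atf6 by 0.60. Xbp1 fell by 0.94, to 128, 121 and 129 CPM, so that the IRE1 gene and the gene of its target RNA moved in opposite directions.

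With both drugs the translocation genes and BiP again fell and the sensors rose. Against Control 8 of the 32 genes were higher, 19 lower and 5 not past the threshold, beside 42.1% and 39.6% of all genes, of which 81.7% passed in either direction. On the log2(FPKM + 1) scale the split was 11 higher and 15 lower, beside 49.4% and 32.8% of all genes, and after quantile normalization 10 and 14, beside 39.5% and 40.8%. The median was -0.24 over the 32 genes and 0.033 over all genes, and groups did not overlap in 27 of the 32 and in 82.3% of all genes. Sec61g was at 27.3, 26.0 and 23.7 CPM, a log2 fold change of -1.84 against Control (SE 0.053, adjusted p = 7.73e-15). Ssr3 was at 128, 142 and 132 CPM and fell by 1.53 (SE 0.049, adjusted p = 3.17e-14). Both lay below every Control and Metformin sample.

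Ern1 (78943, chr11:106397620-106487796), the gene of the sensor IRE1, rose the most of the 32 in this comparison. It was at 12.4, 11.8 and 13.7 CPM in Control, at 20.2, 17.9 and 17.2 CPM with metformin, at 29.3, 39.1 and 31.4 CPM with FK506 and at 42.5, 37.2 and 41.7 CPM with both drugs. The combination stood above Control without overlap, by 1.67 on the log2 scale (SE 0.10, adjusted p = 1.95e-10), and overlapped FK506 alone. Atf6 rose by 0.64 and Eif2ak3 by 0.67, while Xbp1 fell by 1.04 to 114, 114 and 125 CPM and Hspa5 fell by 0.71.

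All 3 drug groups had 6 genes (18.8%) higher than Control, namely Dnajc3, Pdia3, Syvn1, Atf6, Ern1 and Eif2ak3, beside 17% of all genes tested. Lower in all 3 were 9 genes (28.1%), beside 17.4% of all genes. They were the 7 of translocation with Canx and Dnajb11, with the turns given above for Canx and Ssr3 (metformin) and Dnajb11 (FK506). On the log2(FPKM + 1) scale 6 genes were lower in all 3, beside 13.8% of all genes, and after quantile normalization Ssr1 and Ssr2 alone, 2 genes, beside 14.9%. Higher with metformin and lower in both FK506 groups were 6 genes (18.8%), beside 6.23% of all genes. They were Hspa5, Hsp90b1, Hyou1, Pdia6, Sel1l and Derl1, with the turns given above for Hsp90b1 and Hyou1 (FK506). In each of the 3 limma fits on FPKM 4 genes had this pattern, beside 5.14% to 7.06% of all genes, of which Hspa5 and Sel1l were among the 6 in every fit. The 3 comparisons share the Control samples. Calr, at -0.16 with the combination, turned to 0.031 on the log2(FPKM + 1) scale and, after quantile normalization, to 0.249, where it passed the threshold as higher (limma, adjusted p = 1.09e-04), and Edem1, at 0.10, turned to -0.29 with the length offset. The Edem1 call was lost without Control replicate 1 or Metformin+FK506 replicate 1 or 2 (adjusted p of up to 0.0572).

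**Figure D4:**
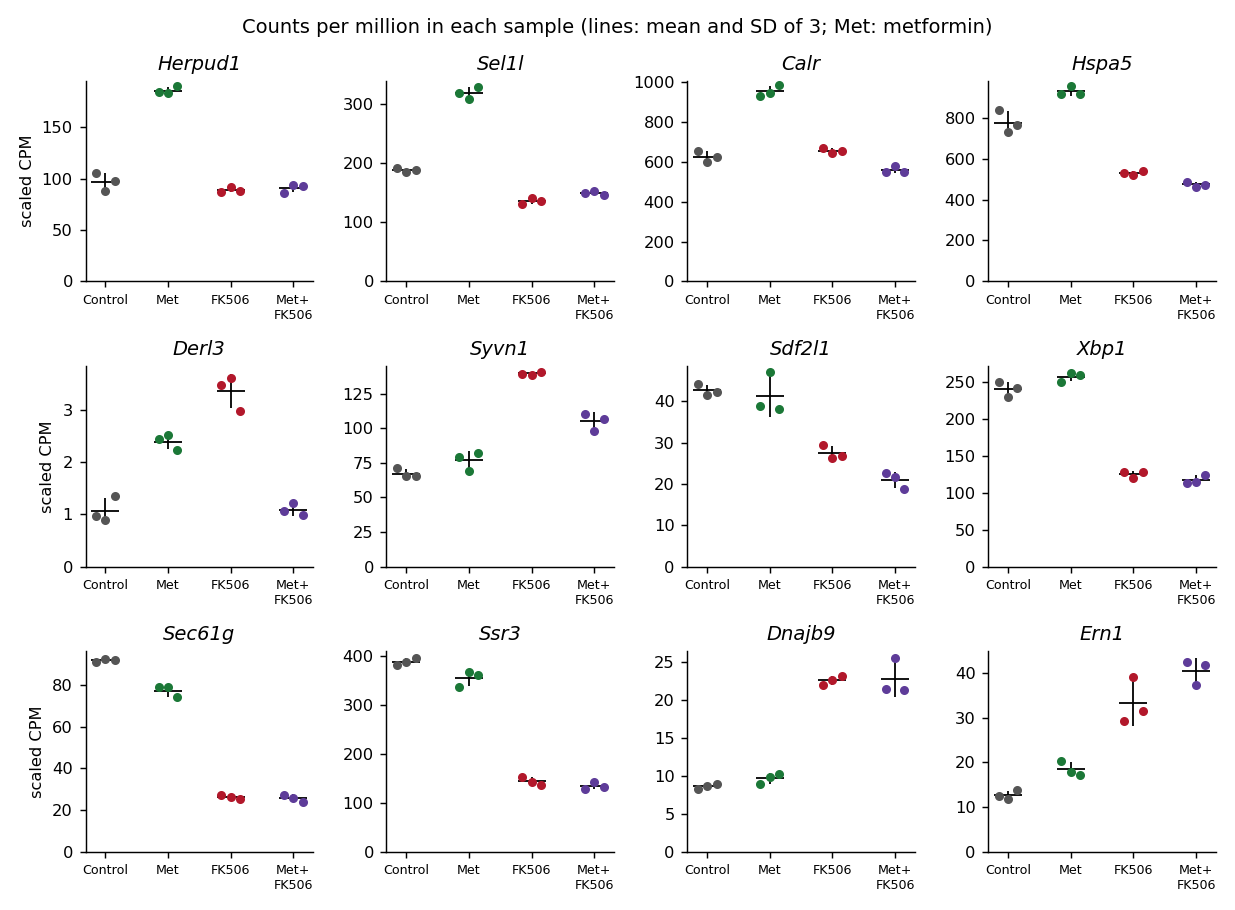
TMM-scaled CPM in each sample for 12 ER genes, with the mean and SD of 3 samples as black lines and every axis starting at 0. Herpud1, Sel1l, Calr and Hspa5 are highest with metformin, Derl3 and Syvn1 with FK506 alone, and Sec61g, Ssr3 and Xbp1 are low in both FK506 groups.

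Added to FK506, metformin lowered Derl3, Syvn1 and several chaperone and folding genes. Against FK506 alone, 2 of the 32 genes were higher with the combination, 13 were lower and 17 did not pass, beside 15.6% and 15% of all genes, of which 30.7% passed in either direction. The median was -0.076 over the 32 and 0.0019 over all genes, and groups did not overlap in 15 of the 32 and in 39.8% of all genes. Derl3 fell back to 1.06, 1.22 and 0.997 CPM, below every FK506 sample and within the range of Control. The difference from FK506 was -1.61 on the log2 scale (SE 0.20, adjusted p = 1.25e-05).

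Syvn1 (74126, chr19:6046576-6053718) was at 110, 97.8 and 107 CPM with both drugs, below the 139 to 141 CPM of FK506 and above the 65.2 to 71.0 CPM of Control. It fell by 0.41 against FK506 (SE 0.059, adjusted p = 5.52e-05). Sdf2l1 (64136, chr16:17130138-17132383), a partner of BiP complexes, was at 44.2, 41.5 and 42.2 CPM in Control, 38.8, 47.1 and 38.1 CPM with metformin, 29.4, 26.3 and 26.8 CPM with FK506 and 22.6, 21.7 and 18.8 CPM with both. The combination was lowest, by 0.38 against FK506 (SE 0.085, adjusted p = 0.00247). The summed B cell markers were also lower with the combination (427 to 458 FPKM) than with FK506 (886 to 926 FPKM), and their part in these falls was not tested.

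Other falls were Pdia4 (0.27), Hsp90b1 (0.26), Calr (0.23), Eif2ak3 (0.22), Manf and Pdia3 (both 0.21), Pdia6 (0.18), Hspa5 (0.16), Ssr2 (0.12) and Dnajb11 (0.11). The calls of Hspa5, Ssr2 and Dnajb11 were lost after quantile normalization and those of Manf, Ssr2 and Sel1l with the length offset. Sel1l rose by 0.14 and Ern1 by 0.28, the latter call lost without FK506 replicate 1 (adjusted p = 0.2), FK506 replicate 3 (0.149), Metformin+FK506 replicate 1 (0.133) or Metformin+FK506 replicate 3 (0.104), which leaves 1 gene higher. The Ssr2 call was lost without FK506 replicate 1 or 2 or Metformin+FK506 replicate 2 (adjusted p of up to 0.152) and that of Dnajb11 without FK506 replicate 1 or Metformin+FK506 replicate 2 (up to 0.115). Of the 7 translocation genes 6 did not pass the threshold, with differences of -0.10 to 0.01.

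Against metformin alone, adding FK506 lowered 23 of the 32 genes and raised 7, beside 37.9% and 40.3% of all genes, of which 78.2% passed in either direction. The median was -0.58 over the 32 and 0.025 over all genes, and groups did not overlap in 30 of the 32 and in 78.9% of all genes. Sec61g fell by 1.59 (SE 0.053, adjusted p = 6.76e-14), from 79.0, 79.0 and 74.1 CPM with metformin, and Ssr3 fell by 1.40 (SE 0.049, adjusted p = 1.31e-13), from 337, 366 and 361 CPM. Dnajb9 rose by 1.24 (SE 0.087, adjusted p = 1.3e-09), from 8.89, 9.80 and 10.2 CPM to 21.4, 25.5 and 21.2 CPM. No sample of either drug group overlapped the other for these 3 genes.

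Of the 17 genes that metformin alone had raised, 12 were lower with both drugs than with metformin and 5 were higher, beside 40.3% and 42.8% of all 4352 genes that metformin raised. Both comparisons hold the same Metformin samples. Among the 12, Sel1l fell by 1.09, Herpud1 by 1.02, Hspa5 by 0.97, Pdia6 by 0.91 and Calr by 0.77. Xbp1 fell by 1.13. The 7 genes higher were Dnajb9, Edem1 and the 5 that metformin alone had raised, Ern1, Atf6, Syvn1, Eif2ak3 and Dnajc3. With the length offset Edem1 (0.29) turned to -0.076 and Dnajc3 (0.28) to -0.041, and Atf6 came to 0.033 and lost its call (edgeR, adjusted p = 0.564), which left 4 genes higher beside 39.7% of all genes. Dnajb11 (-0.12) and Sec61a1 (-0.15) turned to 0.043 and 0.007 on the log2(FPKM + 1) scale, where the median of all genes moved by 0.14, and Pdia3 (-0.18) turned to 0.018 after quantile normalization. For Metformin+FK506 against Control the median moved by 0.17 on that scale.

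The effect of metformin in the presence of FK506 was compared with its effect in the absence of FK506 as the interaction of the drugs, with values below 0 where the effect of metformin was lower with FK506. It passed the threshold for 23 of the 32 genes, below 0 for 18 and above 0 for 5, beside 24% and 22.5% of all genes, of which 46.5% passed in either direction. The median was -0.26 over the 32 genes and -0.020 over all genes. Of the 17 genes raised by metformin alone, 15 (88.2%) had an interaction below 0, beside 67.2% of all 4352 genes that metformin raised. The interaction holds the same Control and Metformin samples as the comparison that chose these genes, which by itself favours values below 0. With FK506 present, 9 of these 15 were lowered by metformin, 5 did not pass the threshold and 1, Sel1l, was raised. Of the 2926 such genes among all genes tested, 21.5% were lowered and 12.3% raised. The interaction that chose the 15 holds the same FK506 and Metformin+FK506 samples, which by itself favours lower values here.

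Derl3 showed the largest difference, 1.16 without FK506 and -1.61 with it, an interaction of -2.77 (SE 0.28, adjusted p = 7.11e-07). Herpud1 moved from 97.1 ± 8.60 CPM (SD, n = 3) to 186 ± 3.65 CPM without FK506 and from 89.1 ± 2.37 CPM to 91.5 ± 4.29 CPM with it. Its samples overlapped between the FK506 groups and not between Control and metformin, and the interaction was -0.90 (SE 0.076, adjusted p = 7.14e-08). Calr stood at 669, 646 and 657 CPM with FK506 and at 551, 583 and 551 CPM with both drugs, so that metformin raised it by 0.60 alone and lowered it by 0.23 with FK506, an interaction of -0.83 (SE 0.056, adjusted p = 4.29e-09).

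By role, the interaction was below 0 for 6 of 8 chaperones, 5 of 6 folding enzymes and lectins, 5 of 7 degradation genes and 2 of 4 sensor branch genes. The calls of Sdf2l1, Derl1 and Xbp1 among these were lost without single libraries (edgeR, adjusted p of up to 0.0797, 0.0759 and 0.0504), and without Control replicate 2 the sensor branch count was 1. Pdia3 had -0.76, Sel1l -0.62, Syvn1 -0.61, Eif2ak3 -0.57, Pdia6 -0.55 and Hspa5 -0.42. In translocation 4 of 7 were above 0 and 0 below. Ssr1 had 0.62, Ssr2 0.27, Sec61a1 0.22 and Sec61g 0.22. The fifth gene above 0 was Edem1, at 0.26. The Sec61g call was lost without FK506 replicate 3, Metformin replicate 3 or Metformin+FK506 replicate 1 (adjusted p of up to 0.0603, edgeR). In the 3 limma fits on FPKM the calls of Sec61a1 and Sec61g were lost (adjusted p of up to 0.151 and 0.342), which left 3 genes above 0, beside 18.8% to 21.7% of all genes.

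**Figure D5:**
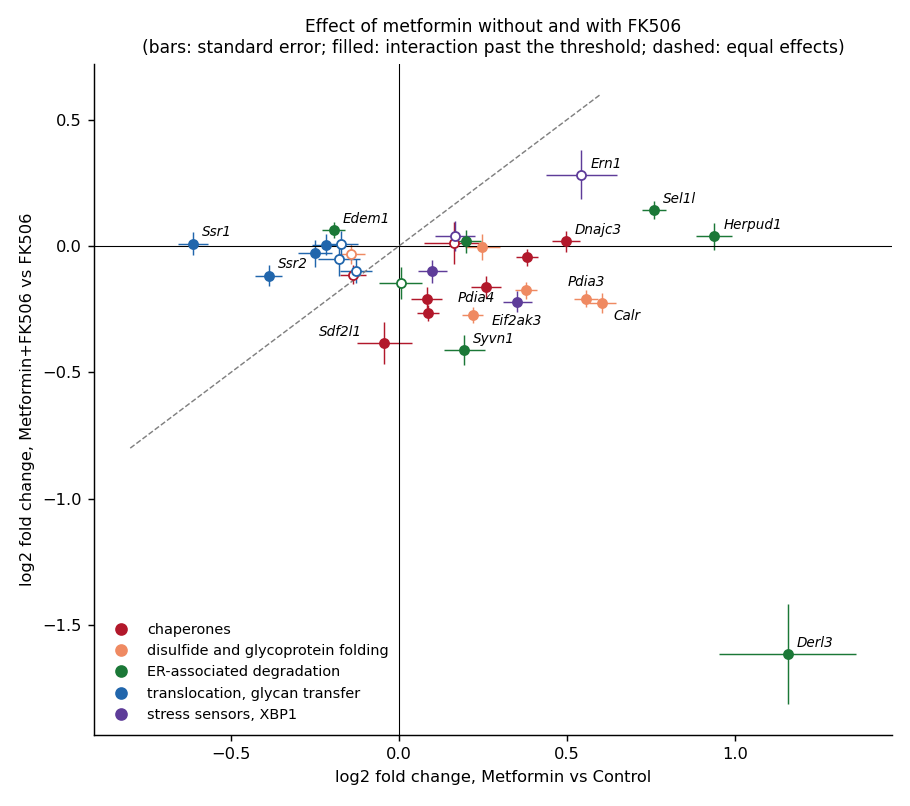
Log2 fold change of metformin without FK506 (horizontal) and with FK506 (vertical) for the 32 ER genes, coloured by role, with standard errors, and filled where the interaction passed the threshold. Points below the dashed line of equal effects had a lower effect of metformin with FK506, among them Derl3 (1.16 and -1.61), Herpud1 (0.94 and 0.04) and Calr (0.60 and -0.23).

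Among calls with a log2 change of 1 or more, Metformin vs Control had 1 of the 32 genes beside 10.5% of all genes, and Metformin+FK506 vs FK506 had 1 beside 4.21%. FK506 vs Control had 7 (21.9%) beside 36.6% of all genes. Metformin+FK506 had 8 (25%) both against Control, beside 37.4%, and against Metformin, beside 32.2%. The interaction had 1 beside 11.9%.

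The promoters described above can be read beside these values. Of the 11 genes with ERSE or ERSE-II, 9 rose with metformin alone and 2 fell (Canx and Dnajb11), a count of 0 after quantile normalization, and 9 had an interaction below 0 and 0 above. Of all genes tested 28.6% rose and 27.4% fell with metformin, and 24% had an interaction below 0 and 22.5% above. Of the 14 genes with a promoter and neither element, 5 rose and 5 fell with metformin, and 6 had an interaction below 0 and 3 above. With FK506 alone the 11 genes split into 3 higher, 6 lower and 2 not past the threshold, and the 14 into 6, 7 and 1, beside 41.3% higher and 39.6% lower of all genes. On the log2(FPKM + 1) scale 5 of the 11 were higher and 3 lower with FK506, beside 49.9% and 31.5% of all genes. After quantile normalization the counts were 5 and 2, beside 37.9% and 41.6% of all genes. Hsp90b1, Dnajb11 and Herpud1 turned from lower to above 0 in both, with Hsp90b1 past the threshold in the latter. These are counts of genes chosen with earlier results known and carry no test.

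The rest of the machinery was read from a list of 73 other ER genes, of which 72 were tested and Bhlha15 was not. With metformin 15 rose (20.8%) and 29 fell (40.3%), beside 28.6% and 27.4% of all genes, with a median of -0.077. Ero1l, the oxidase that feeds disulfide formation, fell by 2.13 and its partner P4hb by 1.09, while the stress effectors Trib3 and Ddit3 (CHOP) rose by 1.01 and 0.92. With FK506 22 rose (30.6%) and 45 fell (62.5%), beside 41.3% and 39.6% of all genes, with the largest rises in the selenoprotein gene Selenom (1.88) and the oxidase gene Ero1lb (1.86) and the largest falls in Ero1l (-4.23) and Trib3 (-3.79).

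With the combination 22 rose (30.6%) and 46 fell (63.9%) against Control, beside 42.1% and 39.6% of all genes, and Selenom (3.07), Ero1lb (1.13), Ero1l (-4.00) and Trib3 (-2.64) were again at the ends. Against FK506, 9 were higher (12.5%) and 15 lower (20.8%), beside 15.6% and 15% of all genes, with Selenom (1.19) and Trib3 (1.16) the largest rises and Ero1lb (-0.73) and the glycan transfer gene Stt3b (-0.27) the largest falls. Against metformin, 23 were higher (31.9%) and 37 lower (51.4%), beside 40.3% and 37.9% of all genes, with rises of Selenom (2.94) and Wfs1 (1.46) and falls of Trib3 (-3.65) and the glycan transfer gene Krtcap2 (-1.96). The interaction was above 0 for 20 (27.8%) and below 0 for 13 (18.1%) of the 72, beside 22.5% and 24% of all genes, at 2.36 for Ero1l, 1.06 for Selenom, -1.37 for Ero1lb and -0.47 for the disulfide isomerase gene Txndc5. The interaction of Trib3, at 0.14, did not pass the threshold (adjusted p = 0.2), and for Ddit3 it was -0.42.

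Among the other translocation and glycan transfer genes of that list, 13 of 26 fell and 2 rose with metformin against Control, beside 27.4% and 28.6% of all genes. With FK506 20 fell and 3 rose, beside 39.6% and 41.3%, and with the combination 21 fell and 3 rose, beside 39.6% and 42.1%. Their medians were -0.10, -0.44 and -0.48 on the log2 scale. Of the 20 other folding enzymes 2 rose and 9 fell with metformin, and of the 14 other degradation genes 5 rose and 5 fell. Of the 12 other sensor branch genes tested 6 rose and 2 fell. With FK506 6, 8 and 5 genes of these 3 lists rose and 14, 5 and 6 fell. Their interaction was above 0 for 5, 4 and 3 genes and below 0 for 2, 4 and 3, beside 22.5% and 24% of all genes.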

How the data were processed

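Poly(A) RNA of 12 samples was sequenced, 3 in each of 4 groups taken from the labels. The submitters' processing notes name bcl2fastq 2.20.0, Trimmomatic, HISAT2 2.1.0, StringTie 2.1.3b and mm10. Whole-number read counts, not normalized, were deposited by the authors for each gene, together with FPKM values, which take account of library size and transcript length. Another 12 per-sample columns were not used. Genes that reached an FPKM of 0.5 in 3 or more samples were tested on the counts with edgeR 4.0.16 in R 4.3.3 (glmQLFit, glmQLFTest, TMM normalization, all 4 groups in the fit, 8 residual degrees of freedom), with Benjamini-Hochberg adjustment over 15197 genes and a threshold of 0.05. CPM values are TMM-scaled. The steps were tested on simulated data.

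The members, roles, marker lists and pathway list were chosen with earlier results of these data known. In each comparison the 3 members with the largest change past the threshold are given in full, and of the pathway genes the 2 largest rises and falls. Promoter sequences and coordinates are from RefSeq on GRCm38.p6. Transcript lengths are GENCODE medians. Replicate numbers of the titles did not pair samples: same-numbered samples correlated at -0.071 to 0.050 after removal of group means. Alternatives used DESeq2 1.42.0 and limma 3.58.1, other filters, scalings and sample sets. The microarrays and other experiments of the study were not analysed here.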

Additional observations from a re-analysis of the deposited data

Results flagged for a closer look

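Each of the 23 values below is the effect of metformin with FK506 minus its effect without FK506, on the log2 scale. They are given here because the test of that difference, edgeR's interaction term, passed the threshold. Below 0 among the chaperones were Dnajc3 (-0.48), Hyou1 (-0.43), Hspa5 (-0.42), Hsp90b1 (-0.35), Sdf2l1 (-0.34) and Manf (-0.29). Below 0 among the folding enzymes and lectins were Calr (-0.83), Pdia3 (-0.76), Pdia6 (-0.55), Pdia4 (-0.49) and Creld2 (-0.25). In degradation they were Derl3 (-2.77), Herpud1 (-0.90), Sel1l (-0.62), Syvn1 (-0.61) and Derl1 (-0.18), and in the sensor branches Eif2ak3 (-0.57) and Xbp1 (-0.20). Above 0 were Ssr1 (0.62), Ssr2 (0.27), Edem1 (0.26), Sec61a1 (0.22) and Sec61g (0.22).

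Leaving out single libraries ended the interaction call of 4 of these genes. Xbp1 lost it without Control replicate 2 (adjusted p = 0.0504, edgeR). Sec61g lost it without FK506 replicate 3, Metformin replicate 3 or Metformin+FK506 replicate 1 (adjusted p of up to 0.0603). Derl1 lost it without Control replicate 1, FK506 replicate 1, Metformin replicate 2 or 3 or Metformin+FK506 replicate 1 (up to 0.0759). Sdf2l1 lost it without Control replicate 2 or 3, FK506 replicate 1, Metformin replicate 2 or Metformin+FK506 replicate 3 (up to 0.0797). Groups of 3 samples are too small for a test of single samples that stand apart.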

How the results depend on the processing

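Of the 151 calls of ER genes over the 6 comparisons, 107 kept their direction and their side of the threshold in every setting tried. DESeq2, RLE size factors and a filter at a mean FPKM of 1 kept 150 each, no filter 146, the length-trend offset (chosen after seeing the data) 142, limma on log2(FPKM + 1) and on log2(FPKM + 0.1) 132 each, and limma on quantile-normalized FPKM 123. With only the groups compared in the fit, 124 of 128 were kept. A replicate block, although the numbers do not pair the samples, kept 145 and left 1 gene higher against 2 for Metformin+FK506 vs FK506. The same count of 1 came with no filter, with both limma fits on FPKM, with only the groups compared and with the length offset, beside 6.82% to 14.9% of all genes over these 6 settings.

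A second threshold, a log2 change of 1 or more, left 1 higher and 0 lower for Metformin vs Control, 4 and 3 for FK506 vs Control, 2 and 6 for Metformin+FK506 vs Control, 0 and 1 for Metformin+FK506 vs FK506, 2 and 6 for Metformin+FK506 vs Metformin and 0 and 1 for the interaction, beside 10.5%, 36.6%, 37.4%, 4.21%, 32.2% and 11.9% of all genes in that order, both directions together. Quantile normalization left 3 genes lower for Metformin vs Control (22.8% of all genes). The length offset left 4 higher for Metformin+FK506 vs Metformin (39.7% of all genes), and the 3 limma fits left 3 above 0 for the interaction (18.8% to 21.7%). Leaving out each replicate in turn gave 1 to 2 higher and 11 to 14 lower for Metformin+FK506 vs FK506, beside 11.6% to 14.7% and 12.6% to 16.5% of all genes. For Metformin vs Control it gave 14 to 16 higher and 8 to 10 lower, beside 25.9% to 26.4% and 24.8% to 25.5% of all genes.

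Directions turned in 25 values. With FK506 vs Control, Hsp90b1 came to 0.019, 0.019 and 0.130, Dnajb11 to 0.073, 0.075 and 0.057 and Herpud1 to 0.094, 0.096 and 0.054 on log2(FPKM + 1), log2(FPKM + 0.1) and quantile-normalized values, and Hyou1 to 0.039 and 0.040 on the first pair. Calr came to 0.031, 0.031 and 0.249 for Metformin+FK506 vs Control. For Metformin+FK506 vs Metformin, Sec61a1 came to 0.007, 0.007 and 0.010, Dnajb11 to 0.043 and 0.043, and Pdia3 to 0.018 after quantile normalization, which also turned Canx (0.017) and Ssr3 (0.028) for Metformin vs Control. The length offset turned Edem1 to -0.294 against Control and -0.076 against Metformin, and Dnajc3 to -0.041 against Metformin. The cause was not tested. At 44 to 237 reads per sample, Derl3 was the member with the least depth.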
